A study of Homo sapiens with 4 samples.

Results

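The endoplasmic reticulum (ER) is where secreted and membrane proteins are folded, and 36 genes of its folding and quality control machinery were followed in SKOV3 cells. SKOV3 is a long-established line of human ovarian cancer cells. The 36 genes were chosen by symbol as ER chaperones and components of the unfolded protein response, and all 36 symbols were found among the 19475 in the deposited table. Both groups were SKOV3 cells without a further genetic change in the labels. The TCP group held 2 libraries of cells on tissue culture plates, labelled day 0. The polymer X group held 2 libraries of tumor spheroids grown for 8 days on plates coated with the polymer X thin film. In the methods, spheroids were cultured with serum replacement and dissociated at intervals during culture, whereas stock cells were kept in fetal bovine serum. The labels describe 1 protocol with serum replacement for every library, so the medium of the TCP cells is uncertain, and substrate and culture time cannot be told apart. The labels do not say whether the libraries of a group came from separate cultures, so the p-values measure only the spread between these libraries.

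Proteins entering the ER are held by chaperones such as HSPA5 (BiP), receive disulfide bonds from protein disulfide isomerases, and pass through the calnexin and calreticulin cycle if they carry glycans. Proteins that fail to fold are sent back to the cytosol for ER-associated degradation. When unfolded proteins accumulate, the membrane sensors ERN1 (IRE1), EIF2AK3 (PERK) and ATF6 start the unfolded protein response, in which cleaved ATF6 and the product of spliced XBP1 mRNA turn on chaperone and degradation genes through ER stress elements in their promoters. The response is studied in solid tumors, where poor supply of oxygen and nutrients burdens protein folding.

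ER stress elements were looked for in the promoters of the members, since they are what many of these genes share at the level of DNA. RefSeq promoters of GRCh38.p14, each running from 250 bases before to 50 bases after an annotated start, were given for 32 of the 36 members, with 39 promoters. The motif ERSE, read as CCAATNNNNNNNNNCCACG on either strand, was found in promoters of 8 of the 32 members (25%), against 0.0916% of all 27305 symbols with a promoter. The shorter ERSE-II, ATTGGNCCACG, was found for 3 of the 32 (9.38%), against 0.0696% of all symbols, and UPRE, TGACGTGG, for 2 of the 32 (6.25%), against 0.927%. All symbols include the members, which were 8 of the 25 with ERSE. The elements were chosen because many of these genes share them, so the shares describe the list and test nothing. The ERSE sites are printed here because they mark which members carry the element in its exact form. They are printed 5′ to 3′ on the strand of the gene with 15 flanking bases where the window allowed. Capitals mark the match, which begins with CGTGG and ends with ATTGG where the motif lies on the opposite strand.
HSPA5, chr9:125241376-125241424, minus strand, match at -66 to -48 from the start: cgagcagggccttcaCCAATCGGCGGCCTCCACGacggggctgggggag
HSP90B1, chr12:103930201-103930249, plus strand, match at -194 to -176: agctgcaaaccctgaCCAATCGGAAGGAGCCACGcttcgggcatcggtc
HSP90B1, chr12:103930306-103930354, plus strand, match at -89 to -71: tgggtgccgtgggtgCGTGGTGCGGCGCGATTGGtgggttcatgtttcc
CALR, chr19:12938369-12938417, plus strand, match at -225 to -207: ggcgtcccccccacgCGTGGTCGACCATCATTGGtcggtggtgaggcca
CANX, chr5:179698763-179698811, plus strand, match at -189 to -171 of one annotated start: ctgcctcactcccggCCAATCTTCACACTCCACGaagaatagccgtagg
PDIA6, chr2:10812838-10812886, minus strand, match at -86 to -68: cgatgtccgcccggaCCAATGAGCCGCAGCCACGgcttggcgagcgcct
CRELD2, chr22:49918539-49918587, plus strand, match at -80 to -62: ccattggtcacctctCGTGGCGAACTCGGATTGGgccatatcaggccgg
XBP1, chr22:28800588-28800636, minus strand, match at -52 to -34: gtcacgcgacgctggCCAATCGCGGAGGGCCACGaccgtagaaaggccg
ERO1B, chr1:236282168-236282208, minus strand, match at -243 to -225: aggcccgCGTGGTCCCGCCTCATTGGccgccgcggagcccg

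The ERSE-II sites belonged to HERPUD1, HYOU1 and SDF2L1, and the UPRE sites to HYOU1 and DNAJC10. In HYOU1, the UPRE at -188 to -181 overlaps the ERSE-II at -185 to -175, so they are not separate matches. The windows are shown because these members moved in different directions.
HERPUD1, chr16:56932010-56932050, plus strand, ERSE-II at -117 to -107: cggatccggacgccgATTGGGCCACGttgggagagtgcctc
HYOU1, chr11:119057365-119057405, minus strand, ERSE-II at -185 to -175: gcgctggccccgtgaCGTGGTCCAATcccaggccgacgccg
HYOU1, chr11:119057259-119057299, minus strand, ERSE-II at -79 to -69: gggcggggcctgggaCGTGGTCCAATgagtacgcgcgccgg
SDF2L1, chr22:21642099-21642139, plus strand, ERSE-II at -188 to -178: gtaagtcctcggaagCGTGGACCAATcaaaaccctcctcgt
DNAJC10, chr2:182716117-182716154, plus strand, UPRE at -125 to -118: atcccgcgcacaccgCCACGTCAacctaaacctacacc

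Expression was measured by mRNA sequencing and deposited as FPKM, a tag count scaled to exon length and to library size, for each RefSeq transcript on hg19. The smallest steps in the values put the depth at 38402000 to 44916000 tags a library. The test, limma on log2(FPKM + 1), covered the 11964 genes that reached 1 FPKM in 2 or more libraries. Here a gene rose or fell if its Benjamini-Hochberg adjusted p was under 0.05, and it was called higher or lower if its log2 fold change was also at least 1 in size. Of 9 epithelial and ovarian carcinoma markers, KRT8, KRT18, ERBB2 and PAX8 lay between 48.8 and 913 FPKM in every library, KRT7 between 4.04 and 8.33, and MUC16, WT1, KRT19 and EPCAM did not exceed 1.39. Of the 6 that were tested, ERBB2, PAX8 and EPCAM were called higher, and KRT7, KRT8 and KRT18 fell. Each of the 4 leukocyte and 3 endothelial markers stayed below 1 FPKM in all libraries. Among them PTPRC had 0.005 and 0 FPKM on TCP and 0.468 and 0.53 on polymer X. PECAM1 had 0 and 0 on TCP and 0.573 and 0.458 on polymer X. The 5 fibroblast markers summed to between 8.48 and 8.78 FPKM on TCP and between 14.5 and 16.5 on polymer X. COL3A1 was called higher, with 0 and 0.041 FPKM on TCP and 5.26 and 4.55 on polymer X. DCN was also called higher, with 0.025 and 0 FPKM on TCP and 7.26 and 6.20 on polymer X. COL1A1 fell from 8.21 and 8.475 FPKM to 3.81 and 3.77, whereas PDGFRB and THY1 were at most 0.184. The part of these markers in the results was not tested. In such bulk samples, fewer cells expressing a gene and less RNA per cell cannot be told apart.

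Of the 36 members, 35 passed the filter on low values, and 33 of these had a log2 fold change under 1 in size. DNAJB9 was the 1 member called higher, against 10.7% of all tested genes, and CREB3L1 the 1 called lower, against 9.45%. The calls made up 5.71% of the tested members and 20.2% of all tested genes. At an adjusted p under 0.05 without the fold change minimum, 17 members rose and 12 fell, or 48.6% and 34.3% of those tested, against 37.4% and 43.6% of all tested genes. The remaining 6 members did not pass. The polymer X and TCP values did not overlap for 32 of the 35 tested members, which was near the background of 90.4%. The median log2 fold change was 0.12 over the members and -0.06 over all tested genes, and its size, regardless of sign, was 0.37 over the members and 0.51 over all tested genes. These are descriptions of a list of related genes, without a test of the list.

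**Figure D1:**
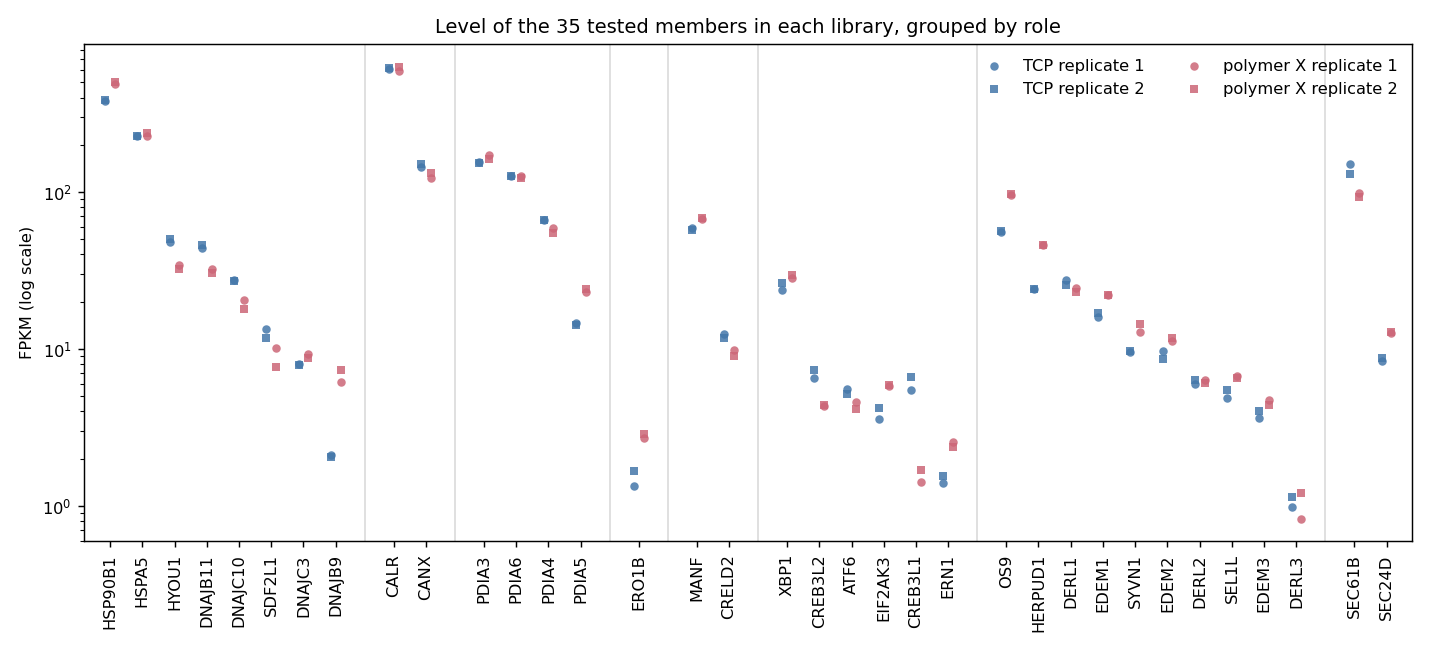
FPKM of the 35 tested members in each library on a log axis, with circles and squares for replicates 1 and 2, TCP in blue and polymer X in red, and vertical lines between roles. CALR and HSP90B1 had the highest levels, and DNAJB9 and CREB3L1 were the members whose groups lay farthest apart.

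The members spanned a wide range of levels. CALR had the highest FPKM in all 4 libraries, followed by HSP90B1, HSPA5 and PDIA3. DERL3 was the lowest tested member in each library, with between 35 and 54 tags. The 7 members with a mean of at least 100 FPKM had log2 fold changes between -0.54 and 0.37, and 4 of them did not pass the test. The 12 members with a mean under 10 FPKM lay between -1.46 and 1.33. The summed FPKM of the 36 members was 2302 and 2307 on TCP and 2393 and 2441 on polymer X. Without HSP90B1 it was 1923 and 1920 on TCP and 1907 and 1937 on polymer X, so the groups overlapped. HSP90B1 had the largest gain in mean FPKM of the members, from 383 to 495. Leaving it out was therefore bound to shrink the difference, and no member that fell was left out in turn. The sum of all 36 members, HSP90B1 included, was 0.733% and 0.760% of the summed FPKM of all symbols on TCP. On polymer X it was 0.861% and 0.898%. The total over all symbols was itself lower on polymer X, at 278079 and 271696 against 313837 and 303382.

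Among the chaperones of the HSP70 and HSP90 systems, the central chaperone HSPA5 (NM_005347, hg19 chromosome 9, 127997127 to 128003666, minus strand) did not pass the test. Its FPKM was 229 and 226 on TCP and 229 and 239 on polymer X. The log2 fold change was 0.04, with a 95% interval of -0.09 to 0.17 (limma, adjusted p = 0.53). Under quantile normalization it was 0.37 (limma, adjusted p = 0.00076), so that passing the test depends on how libraries are scaled. HSP90B1 (GRP94), the ER form of HSP90, had 378 and 387 FPKM on TCP and 486 and 504 on polymer X. It rose by a log2 fold change of 0.37 (SE 0.06, limma, adjusted p = 0.00044), and by 0.68 under quantile normalization. Both genes carry the ERSE sites printed above, and the polymer X values of HSP90B1 lay above both TCP values.

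DNAJB9 (ERdj4), a J-domain partner of HSPA5 that also acts on ERN1, had the largest rise of the 35 tested members. It was listed with 2.12 and 2.04 FPKM on TCP and with 6.13 and 7.38 on polymer X (NM_012328, chromosome 7, 108210189 to 108215294, plus strand). Both polymer X values lay well above both TCP values, and the mean FPKM was 3.25 times that on TCP. The log2 fold change was 1.33 (SE 0.09, limma, adjusted p = 7.7e-07), and behind it were 206 and 232 tags on TCP and 622 and 760 on polymer X. Over all alternatives it lay between 1.21 and 1.65, except that the gene is not tested with a minimum mean of 5 FPKM. None of the motifs searched was found in its promoter window.

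The other J-domain partners went in the opposite direction or moved less. DNAJB11 (ERdj3), which binds unfolded clients together with HSPA5, had 43.8 and 45.8 FPKM on TCP and 32.4 and 30.6 on polymer X. DNAJC10 (ERdj5), a reductase that prepares proteins for degradation, had 27.5 and 27.0 FPKM on TCP and 20.4 and 17.9 on polymer X. Their log2 fold changes were -0.50 and -0.49 (limma, adjusted p = 3.4e-05 and 0.00013), and -0.21 and -0.27 under quantile normalization. DNAJC3 (p58IPK) had a log2 fold change of 0.17 (limma, adjusted p = 0.036), which did not pass the threshold with TCP replicate 1, TCP replicate 2 or polymer X replicate 1 left out (adjusted p between 0.11 and 0.14). HYOU1 (GRP170), the exchange factor of HSPA5, fell from 48.1 and 49.9 FPKM to 34.2 and 32.3, a log2 fold change of -0.55 (limma, adjusted p = 1.6e-05), which was -0.25 under quantile normalization. SDF2L1, which works with DNAJB11, had 13.3 and 11.7 FPKM on TCP and 10.1 and 7.64 on polymer X. It fell by 0.46 on the log2 scale (SE 0.11, limma, adjusted p = 0.0045), and the value was -0.27 without polymer X replicate 2 and -0.64 without polymer X replicate 1. In all, 3 of the 8 chaperones rose, 4 fell and HSPA5 did not pass, where 37.4% of all tested genes rose and 43.6% fell. This count was not tested.

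**Figure D2:**
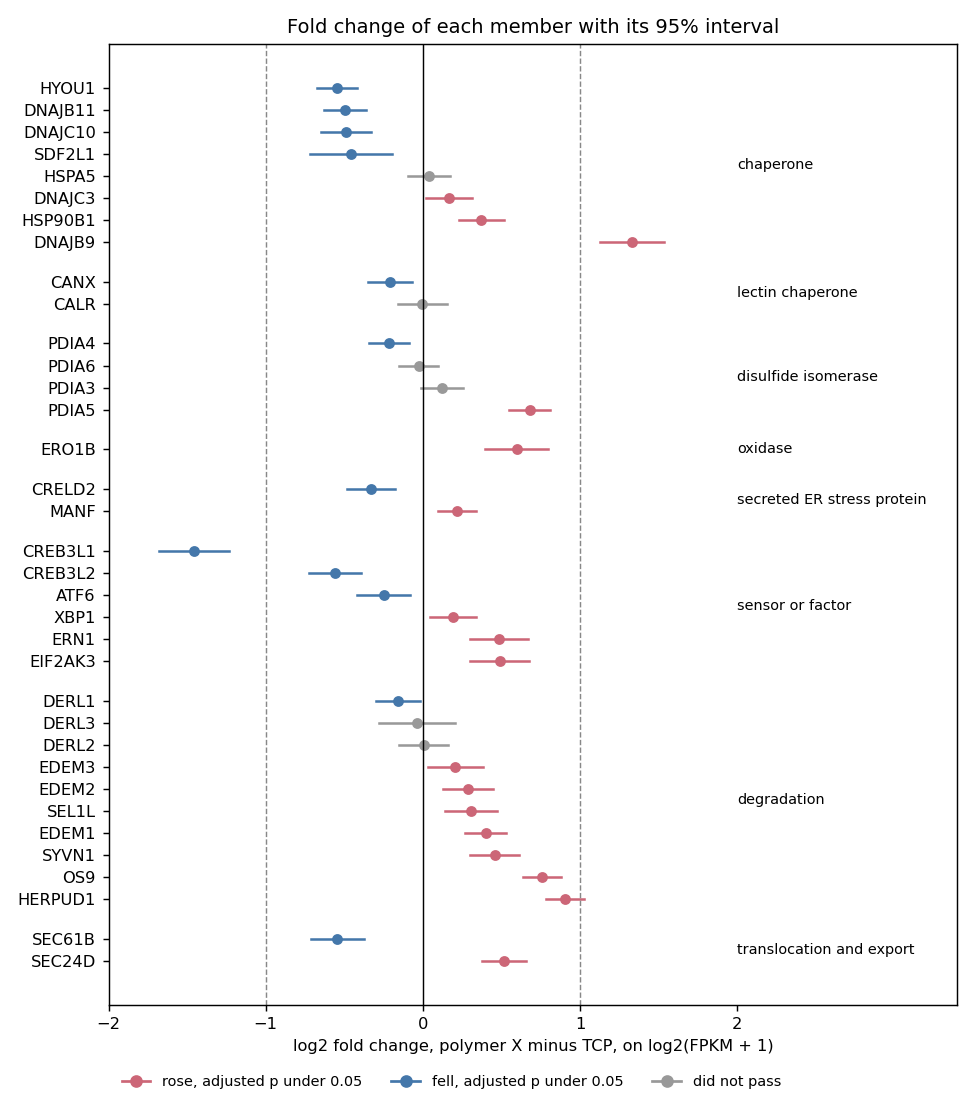
Log2 fold change of each tested member, polymer X minus TCP on log2(FPKM + 1), with the 95% interval from limma, grouped by role. Red marks members that rose, blue those that fell and grey those that did not pass, and dashed lines lie at -1 and 1. DNAJB9 and CREB3L1 lie beyond the dashed lines. Among the degradation genes 7 of 10 lie to the right in red. CANX, PDIA4, PDIA6, DERL1 and CALR lie to the right of 0 under quantile normalization.

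The lectin chaperones CALR (calreticulin) and CANX (calnexin), which hold glycoproteins during folding, had small differences. CALR had 609 and 618 FPKM on TCP and 595 and 630.4 on polymer X, so the groups overlapped. Its log2 fold change was 0.00 in size to 2 decimals (95% interval -0.16 to 0.15). CANX had 144 and 151 FPKM on TCP and 123 and 132 on polymer X, with a log2 fold change of -0.21 (limma, adjusted p = 0.011). It did not pass without TCP replicate 2 or polymer X replicate 1 (limma, adjusted p = 0.065 and 0.071). The direction of CANX depends on the scaling, with 0.13 under quantile normalization (limma, adjusted p = 0.10), and that of CALR was 0.38 there (limma, adjusted p = 0.0018).

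The protein disulfide isomerases form and rearrange disulfide bonds, and PDIA5 was the 1 of the 4 members that rose with the deposited scaling. It had 14.6 and 14.2 FPKM on TCP and 23.1 and 24.2 on polymer X (NM_006810, chromosome 3, 122785856 to 122880953, plus strand). The log2 fold change was 0.68 (SE 0.06, limma, adjusted p = 3.8e-06), and the mean FPKM was 1.64 times that on TCP. PDIA3 (ERp57), which works with the lectin chaperones, had 156 and 153 FPKM on TCP and 173 and 163 on polymer X, with an interval of -0.01 to 0.25 on the log2 scale. For PDIA6, which also damps ERN1, the interval was -0.15 to 0.10. PDIA4 (ERp72) had a log2 fold change of -0.21 (limma, adjusted p = 0.0062), but 0.13 under quantile normalization. In that scaling PDIA3 and PDIA6 had log2 fold changes of 0.47 and 0.32 and passed the test. ERO1B, an oxidase that recharges the isomerases, was listed with 1.34 and 1.68 FPKM on TCP and 2.71 and 2.87 on polymer X. Its log2 fold change was 0.60 (SE 0.09, limma, adjusted p = 0.00018), and the value was 0.32 under quantile normalization and 0.85 on log2(FPKM + 0.1).

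The small secreted proteins MANF and CRELD2, both known as products of ER stress, went in opposite directions. MANF had 59.0 and 57.6 FPKM on TCP and 67.5 and 68.5 on polymer X, with a log2 fold change of 0.22 (limma, adjusted p = 0.0040), which was 0.53 under quantile normalization. CRELD2 had 12.4 and 11.8 FPKM on TCP and 9.83 and 8.97 on polymer X. It fell by 0.33 on the log2 scale (limma, adjusted p = 0.0014).

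The 3 stress sensors did not move together. EIF2AK3 (PERK), the kinase that slows translation, had 3.55 and 4.21 FPKM on TCP and 5.82 and 5.85 on polymer X. ERN1 (IRE1), the nuclease that splices XBP1 mRNA, had 1.39 and 1.54 FPKM on TCP and 2.54 and 2.36 on polymer X. ATF6 had 5.53 and 5.20 FPKM on TCP and 4.56 and 4.15 on polymer X. The log2 fold changes were 0.49 for EIF2AK3 and 0.48 for ERN1 (limma, adjusted p = 0.00040 and 0.00039) and -0.25 for ATF6 (limma, adjusted p = 0.012). That of ERN1 was 0.19 under quantile normalization (limma, adjusted p = 0.057) and 0.70 on log2(FPKM + 0.1). Without TCP replicate 1 and without polymer X replicate 2, ATF6 no longer passed (limma, adjusted p = 0.082 and 0.067).

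XBP1, whose spliced mRNA encodes a transcription factor of the response, had 23.9 and 26.5 FPKM on TCP and 28.2 and 29.6 on polymer X (NM_005080, chromosome 22, 29190548 to 29196560, minus strand). Its log2 fold change was 0.19 (limma, adjusted p = 0.022) and 0.44 under quantile normalization, and without TCP replicate 1 or polymer X replicate 2 it did not pass (limma, adjusted p = 0.22 and 0.10). The other listed transcript, NM_001079539, is the spliced form and had log2 fold change 0.19 as well. Both transcripts were counted over nearly the same exons, so these values do not measure splicing of XBP1.

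ATF6B, the relative of ATF6, was listed at 0 FPKM in both TCP libraries and at 0.019 and 0 on polymer X, which is at most 2 tags. Both ATF6B transcripts of the table lie on an alternative haplotype contig of chromosome 6 and are marked with 4 copies. Among the 278 table rows on such contigs with more than 1 copy, 83.5% stayed under 1 FPKM in every library, against 35.3% of the 2288 rows on chromosome 6 itself. The part of the placement in the value of ATF6B was not tested, and no level of ATF6B is read from it.

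CREB3L1 (OASIS), a membrane-bound factor of the ATF6 kind that is known for driving collagen secretion genes, fell most among the members. It had 5.46 and 6.65 FPKM on TCP and 1.43 and 1.70 on polymer X (NM_052854, chromosome 11, 46299189 to 46342972, plus strand). Both polymer X values lay below both TCP values, and the mean was 0.258 times that on TCP. The log2 fold change was -1.46 (SE 0.10, limma, adjusted p = 8.2e-07), with 565 and 805 tags on TCP and 154 and 186 on polymer X. It lay between -1.89 and -1.34 over all alternatives that tested it, and with a minimum mean of 5 FPKM it was not tested. Its paralog CREB3L2 had 6.56 and 7.28 FPKM on TCP and 4.35 and 4.37 on polymer X, with a log2 fold change of -0.56 (limma, adjusted p = 7.2e-05). Over its 3 listed transcripts the log2 fold change lay between -0.98 and -0.53.

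Of the 10 degradation genes 7 rose and DERL1 fell, where 37.4% of all tested genes rose and 43.6% fell, and this count was not tested. HERPUD1, a scaffold of the membrane degradation complex, had 24.1 and 24.0 FPKM on TCP and 46.0 and 45.7 on polymer X (NM_014685, chromosome 16, 56966002 to 56977793, plus strand). The replicates were close and the groups far apart, with a mean 1.91 times that on TCP and a log2 fold change of 0.90 (SE 0.05, limma, adjusted p = 3.2e-07). OS9, a lectin that brings glycoproteins to the complex, had 55.9 and 56.7 FPKM on TCP and 95.4 and 96.5 on polymer X (NM_001261422, chromosome 12, 58087738 to 58115340, plus strand). Its log2 fold change was 0.76 (SE 0.05, limma, adjusted p = 9.7e-07), and over its 8 transcripts it lay between 0.75 and 0.78. These transcripts have the same start and end and nearly equal FPKM, so they are not separate measurements. Under quantile normalization HERPUD1 and OS9 were also called higher, at 1.17 and 1.08.

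SYVN1 (HRD1), the ubiquitin ligase of the complex, had 9.58 and 9.66 FPKM on TCP and 12.8 and 14.4 on polymer X, with a log2 fold change of 0.46 (limma, adjusted p = 0.00022). Its partner SEL1L had 4.90 and 5.45 FPKM on TCP and 6.74 and 6.51 on polymer X, with a log2 fold change of 0.31 (limma, adjusted p = 0.0035). The shorter SEL1L transcript NM_001244984 had a log2 fold change of -0.19, and with both transcripts summed the value was 0.11 (limma, adjusted p = 0.18). The EDEM proteins trim mannose from failing glycoproteins. EDEM1, with 16.1 and 16.9 FPKM on TCP and 21.97 and 22.2 on polymer X, rose most of the 3, by a log2 fold change of 0.40 (limma, adjusted p = 0.00015). Those of EDEM2 and EDEM3 were 0.29 and 0.21 (limma, adjusted p = 0.0042 and 0.033), and EDEM2 did not pass without TCP replicate 2, at 0.21 (limma, adjusted p = 0.052). EDEM3 did not pass without TCP replicate 1 or polymer X replicate 1, at 0.15 and 0.16 (limma, adjusted p = 0.21 and 0.15). It did not pass either under quantile normalization, at 0.09 (limma, adjusted p = 0.28), or with no filter (limma, adjusted p = 0.075).

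The derlins are membrane proteins of the channel through which clients leave the ER, and none of the 3 rose. DERL1 had a log2 fold change of -0.16 (limma, adjusted p = 0.037), and was 0.07 under quantile normalization. DERL1 did not pass with no filter, a common median, transcripts summed or no variance trend (limma, adjusted p between 0.052 and 0.080). Nor did it pass without TCP replicate 1, TCP replicate 2 or polymer X replicate 2, at -0.11, -0.20 and -0.12. DERL2 had 6.002 and 6.34 FPKM on TCP and 6.33 and 6.06 on polymer X, so the groups overlapped, with an interval of -0.15 to 0.16 on the log2 scale. DERL3 had 0.983 and 1.13 FPKM on TCP and 0.825 and 1.21 on polymer X, and an interval of -0.28 to 0.21. DERL3 passed the test under quantile normalization, at -0.53 (limma, adjusted p = 0.0036).

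The members at the entry and exit of the ER differed in direction. SEC61B, a subunit of the channel through which new proteins enter, had 151 and 130.2 FPKM on TCP and 98.2 and 93.3 on polymer X. The difference was larger than the spread between the TCP libraries, with a log2 fold change of -0.54 (SE 0.07, limma, adjusted p = 0.00010), but -0.18 under quantile normalization (limma, adjusted p = 0.022). SEC24D, a cargo adaptor of COPII export vesicles, had 8.40 and 8.79 FPKM on TCP and 12.6 and 12.8 on polymer X, with a log2 fold change of 0.51 (SE 0.06, limma, adjusted p = 4.0e-05).

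The members with an exact ER stress element in the promoter did not share a direction. Of the 8 with ERSE, ERO1B, HSP90B1 and XBP1 rose, CANX and CRELD2 fell, and HSPA5, CALR and PDIA6 did not pass, while CANX turns to 0.13 under quantile normalization. Their log2 fold changes lay between -0.33 and 0.60, with a median of 0.02. Among the 3 with ERSE-II, HERPUD1 rose and HYOU1 and SDF2L1 fell. The 20 tested members with a promoter but neither element lay between -1.46 and 1.33, with a median of 0.21, and this difference was not tested. Over the whole table, 16 tested genes had ERSE in a promoter, 8 of them the members, and by limma 0 of the 16 were called. For ERSE-II 1 of 13 tested genes was called higher and 2 lower, and for UPRE 12 of 111 were called higher and 10 lower, where 20.2% of all tested genes were called. A match is a description of the sequence, and no match says only that these letters are not in the window.

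**Figure D3:**
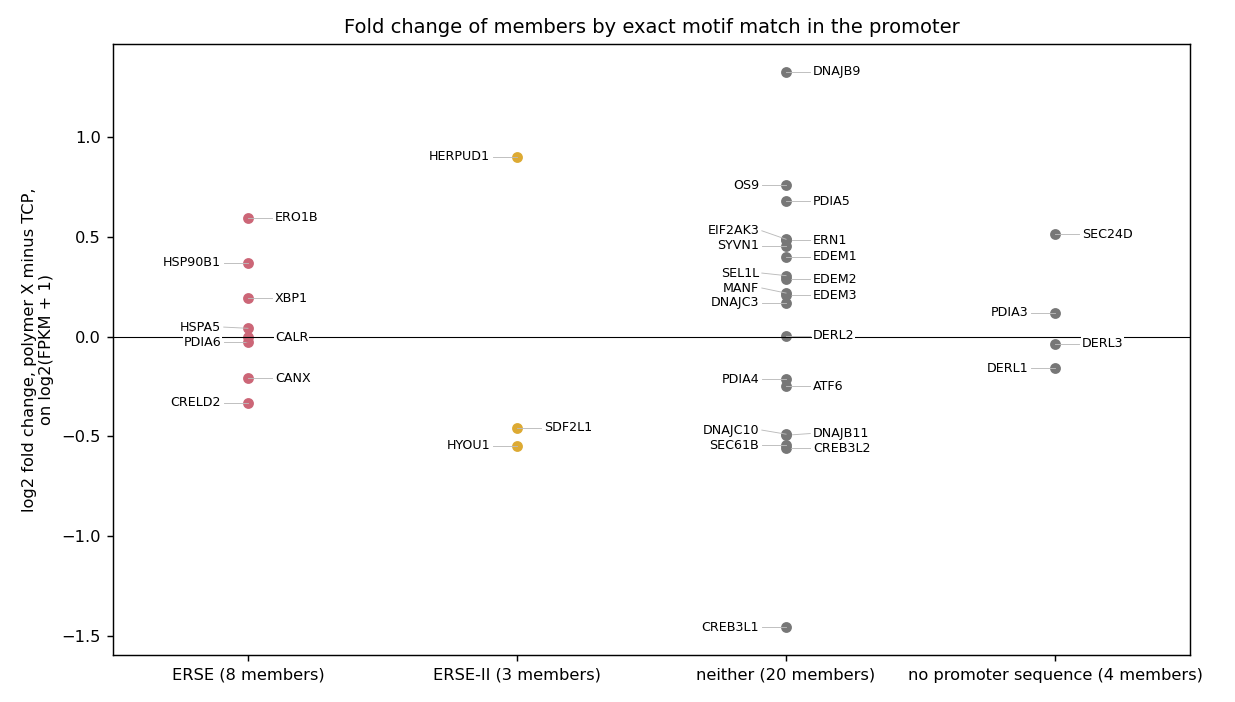
Log2 fold change of the 35 tested members, polymer X minus TCP on log2(FPKM + 1), by exact match of ERSE or ERSE-II in the promoter window. Each point is a member. The 8 members with ERSE lie between -0.33 and 0.60, inside the range of the 20 members with neither element. The 4 members on the right had no promoter sequence to search. CALR, CANX, PDIA6, PDIA4 and DERL1 lie above 0 under quantile normalization, and DERL2 below.

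The other ER genes were read from 7 lists that were not part of the 36 members. Of their 120 genes, 117 were tested, 6 were called higher and 3 lower, and 36 rose and 57 fell without the fold change minimum. These were 5.13% and 2.56% called and 30.8% and 48.7% that rose and fell, against 10.7%, 9.45%, 37.4% and 43.6% of all tested genes. Their median log2 fold change was -0.11, against 0.12 for the members. The PERK-ATF4-CHOP branch, which follows EIF2AK3, held most of the calls, with 3 higher and 2 lower among 13 tested genes. Without the fold change minimum 6 of the 13 rose and 5 fell, and their median log2 fold change was -0.10. DDIT3 (CHOP), the factor tied to death under lasting stress, had 21.8 and 21.1 FPKM on TCP and 54.5 and 57.3 on polymer X, with a log2 fold change of 1.34 (limma, adjusted p = 3.8e-08). NUPR1, a stress-induced nuclear protein, had 12.2 and 10.6 FPKM on TCP and 56.5 and 56.1 on polymer X, with a log2 fold change of 2.21. TRIB3, PPP1R15A and PPP1R15B, named after their values were seen, had log2 fold changes of 1.28, -0.48 and -0.72. ATF4 itself had 169 and 154 FPKM on TCP and 149 and 151 on polymer X, with an interval of -0.24 to 0.04 on the log2 scale. EIF2S1, the translation factor that EIF2AK3 phosphorylates, and ATF3 fell, with log2 fold changes of -1.31 and -1.29.

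In the lists of the folding and transport machinery, few genes were called and more fell than rose in 5 of the 6, as over all tested genes, where 37.4% rose and 43.6% fell. Among the oxidoreductases 6 of 16 rose and 8 fell, and QSOX1, a sulfhydryl oxidase of the secretory pathway, was called higher, with 96.1 and 96.6 FPKM on TCP and 230 and 240.4 on polymer X. ERO1A, the relative of ERO1B, had a log2 fold change of 0.68 (limma, adjusted p = 3.0e-06), against 0.60 for ERO1B. Of the 24 translocon and signal peptide genes 3 rose and 15 fell, and SSR3, a subunit of the translocon-associated complex, was called lower at -1.35. For N-glycosylation and glycan trimming the counts were 6 and 7 of 17, and for other genes of ER-associated degradation 7 and 9 of 21, with 0 called in either list. In these data 7 of 10 degradation members rose, but 7 of the 21 other degradation genes did, and this difference was not tested. In export and retrieval 5 of 20 rose and 11 fell, and SEC31B, a coat subunit of COPII vesicles, was called higher at 1.52. In the list of other membrane-bound factors and their proteases, 3 of 6 rose and 2 fell. SREBF1, a sterol and lipid factor of the bHLH-zip class cleaved by the same proteases as ATF6, was called higher at 1.01. The others that rose were SREBF2 and the protease MBTPS1, with log2 fold changes of 0.70 and 0.60. The other protease of the list, MBTPS2, fell, with a log2 fold change of -0.38. CREB3, a bZIP factor related to CREB3L1, fell by 0.19 on the log2 scale. Apart from SREBF1, these genes were named after their values were seen.

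**Figure D4:**
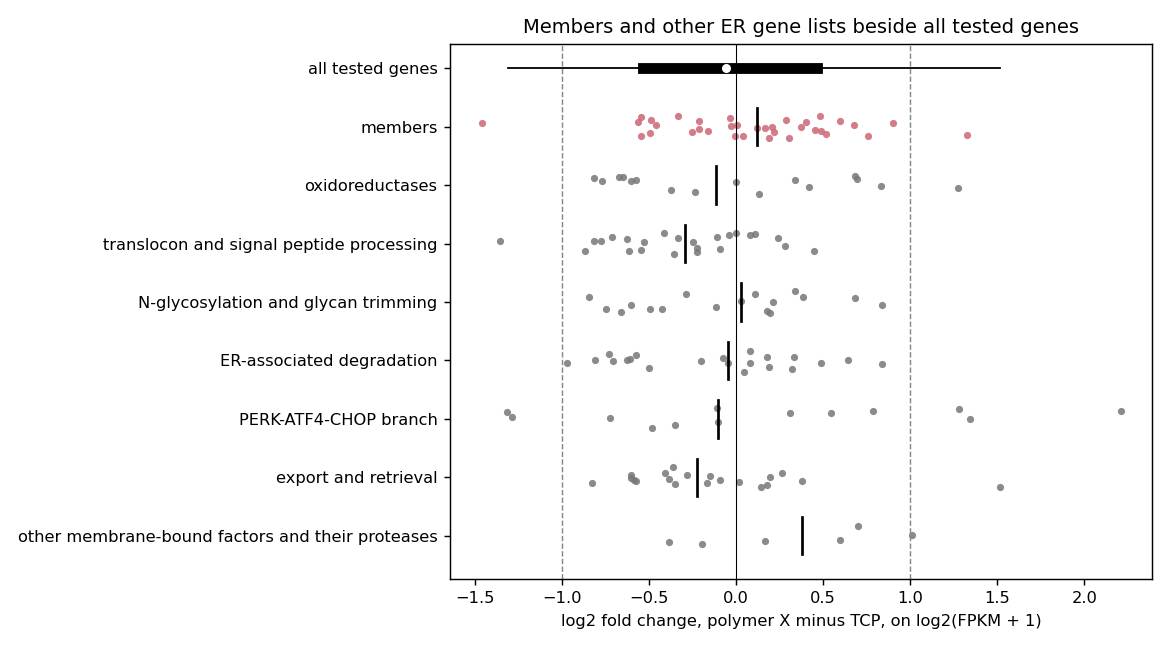
Log2 fold change, polymer X minus TCP on log2(FPKM + 1), of the members (red) and of 7 other lists of ER genes (grey), each point 1 tested gene and each bar the median of its list. The top row gives all 11964 tested genes with a white point at the median, -0.06, a thick line over the middle 50% and a thin line over the middle 90%. Dashed lines lie at -1 and 1, and 33 of the 35 members lie between them.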

How the data were processed

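Libraries of SKOV3 cells on TCP (n = 2) and on polymer X (n = 2) were grouped by the sample labels. The authors deposited FPKM values per RefSeq transcript of hg19. Per the file header, HOMER counted tags on exons of both strands, so overlapping antisense genes share tags. The submitters' processing notes also name STAR 2.4.0 and DESeq, and the HOMER version is not given in the sources used here. Each symbol is represented by its most highly expressed transcript, by mean FPKM. The fit used log2(FPKM + 1) and limma 3.58.1 (R 4.3.3), let the variance follow the mean, left out the replicate number, and covered the 11964 genes reaching 1 FPKM in 2 or more libraries. P-values were adjusted by the Benjamini-Hochberg method. For genes with low FPKM, the pseudocount makes the fold change too small. The smallest two-sided p of an exact permutation test is 0.333 with 2 libraries a group, and the limma p-values draw on a spread estimated over many genes.

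FPKM times transcript length fell within 0.1 of whole tags for 100% of the low values used. Tag numbers and their errors cover counting error only. The replicates were not the same library deposited again, since the chi-square per gene averaged 5.12 for TCP and 5.84 for polymer X. Tags were also simulated for 11712 genes of this comparison, with 200 of them shifted by 1.5 on the log2 scale. Of the shifted genes, 197 were called in the right direction. Of the 11512 unshifted genes 0 were called, though 10 had an adjusted p under 0.05 from limma. Far more genes moved in the data, where 37.4% of those tested rose and 43.6% fell. With so few genes shifted, the simulation cannot show how often scaling between libraries produces calls. The simulated spread between replicates was set in advance and not estimated from these libraries. The simulation therefore cannot show how often unshifted genes would be called here. Motifs were searched in RefSeq promoters of GRCh38.p14, matched by symbol, and hg19 coordinates were not converted. Of the 39 promoters of members, 35 ended in a sequence of a GENCODE transcript of that gene on the same strand. Plots were drawn with matplotlib 3.10.9.

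The members, the other ER lists and the markers were chosen with earlier results of these data known. Every member is named. From each other list the text names the 2 called genes that changed most, higher and lower, and ATF4, DDIT3 and ERO1A. Alternatives were a pseudocount of 0.1, no filter, a minimum mean of 5 FPKM, quantile normalization, a common median for all libraries, the sum of transcripts, no variance trend, the replicate block, each library left out, and other fold change minimums.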

Additional observations from a re-analysis of the deposited data

How the results depend on the processing

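DNAJB9 was the 1 member called higher and CREB3L1 the 1 called lower under the pseudocount of 0.1, no filter, scaling to a common median, the sum of transcripts, no variance trend, the replicate block and each library left out in turn. By construction, a changed filter, no variance trend and the replicate block leave the fold change of every tested member as it was. These refits could change only its adjusted p. DNAJB9 and CREB3L1 each have 1 listed transcript, so summing transcripts could not change their values either. When a library is left out, the lone library of its group is assumed to vary like the other group. Quantile normalization gave 3 members higher. With a minimum mean of 5 FPKM the counts were 0 and 0, since neither gene is tested there. With a 1.5-fold minimum 5 members were higher, and without a minimum 17 were higher and 12 lower. The other ER genes called were 6 higher and 3 lower. With a minimum mean of 5 FPKM there were 4 higher, with a 1.5-fold minimum 16 and 29, and without a minimum 36 and 57.

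The median of the members, 0.12, was 0.081 with no filter, 0.041 with a minimum mean of 5 FPKM, 0.27 under quantile normalization, 0.16 under scaling to a common median, 0.11 with transcripts summed and between 0.10 and 0.16 with a library left out. In each library, the median deviation of the members from their means over all libraries was taken, and its standard deviation between replicates was 0.0095. It is not the spread of the median fold change. The cause of these moves was not tested, except that the filter changes which members enter.

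Of 412 refits of single members, 368 kept the sign and the side of the threshold. The sign changed in 15, and an adjusted p under 0.05 was lost in 27 and gained in 7, with 5 counted in both. Under quantile normalization CALR was 0.38, CANX 0.13, PDIA4 0.13, PDIA6 0.32, DERL1 0.068 and DERL2 -0.014. Under scaling to a common median CALR was 0.039 and PDIA6 0.015. DERL3 was 0.021 with transcripts summed. With a library left out, the sign of CALR, DERL2 and DERL3 varied, over -0.045 to 0.039, -0.029 to 0.039 and -0.17 to 0.10.

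The replicate number as a block leaves the fold changes as they were. With it, 1 member was higher and 1 lower, the median was 0.12, and PDIA3 gained the threshold (adjusted p = 0.040 from limma). Deviations from the group means correlated at 0.093 between libraries of the same number, over 11964 genes, and the number was not taken as a pairing. Depth limits DERL3, with 35 to 54 tags in a library.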
